A study of Mus musculus with 29 samples.

Results

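Klf2, Klf4 and Klf6 are 3 genes of the Krüppel-like factor family, followed here through every brain and blood cell type of a mouse stroke study. They were chosen by name, and all 3 are listed in each kind of table: the one of young brains holds 19704 genes, that of aged brains 27514 and that of blood 16623. The level of a gene is given as CPM, its share of all counts scaled to a common total of 1000000, after the counts of all cells of 1 type in 1 library were added up. Single cells were captured in droplets with barcoded beads (Drop-seq) from 29 libraries of C57BL/6J mice. Transient occlusion of the middle cerebral artery (tMCAO) cuts the blood supply of part of 1 hemisphere and then restores it, and control mice had a sham operation. Brains of young males (8 to 10 weeks) are represented by 4 libraries after sham at day 2, 4 after stroke at day 2 and 4 after stroke at day 14. Brains of aged mice (17 to 20 months) are represented by 2 sham libraries at day 2 (1 male, 1 female), 3 stroke libraries at day 2 (1 male, 2 female) and 1 female stroke library at day 14. Blood leukocytes of young males gave 4 sham libraries at day 2, 4 stroke libraries at day 2 and 3 stroke libraries at day 14. A brain library pools the hemispheres of 4 to 5 mice, and a blood library pools 2 mice. Brain cells were freed with papain in the presence of transcription inhibitors and sorted for endothelial cells, microglia and CD45-high leukocytes, so the share of a type reflects the sort. No sham operation was sampled at day 14, and both stroke times are therefore set against the same sham libraries of day 2.

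Krüppel-like factors are transcription factors with zinc fingers that bind GC-rich DNA. Klf2 and Klf4 are raised by laminar blood flow in endothelium, through a kinase cascade that ends at MEF2 factors, and they hold down adhesion molecules and clotting there. Klf2 also keeps T cells quiescent and restrains the activation of monocytes and macrophages, Klf4 takes part in the differentiation of monocytes, and Klf6 is a fast-responding factor of injury and inflammation that favours inflammatory gene expression in macrophages.

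The stretch just upstream of each start site is shown because the 3 genes fell together in microglia. For Klf2 and Klf4 control by MEF2 factors is the textbook route, and an SP/KLF-like motif was searched beside a MEF2-like one. The 250 bases before the RefSeq start lie at chr8:72318812-72319061 on the plus strand for Klf2, at chr4:55532476-55532725 on the minus strand for Klf4 and at chr13:5861239-5861488 on the plus strand for Klf6, in GRCm38.p6. Each is printed 5′ to 3′ along its gene, with matches in capitals to the MEF2-like motif CTANNNNTAG or to the SP/KLF-like motif GGGGCGGGG, searched on both strands (a match on the other strand reads CCCCGCCCC).
Klf2: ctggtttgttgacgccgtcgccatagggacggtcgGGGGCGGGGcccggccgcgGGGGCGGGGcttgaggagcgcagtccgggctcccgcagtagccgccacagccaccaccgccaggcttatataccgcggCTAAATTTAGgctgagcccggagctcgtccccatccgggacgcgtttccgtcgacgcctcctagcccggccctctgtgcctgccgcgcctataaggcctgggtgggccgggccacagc
Klf4: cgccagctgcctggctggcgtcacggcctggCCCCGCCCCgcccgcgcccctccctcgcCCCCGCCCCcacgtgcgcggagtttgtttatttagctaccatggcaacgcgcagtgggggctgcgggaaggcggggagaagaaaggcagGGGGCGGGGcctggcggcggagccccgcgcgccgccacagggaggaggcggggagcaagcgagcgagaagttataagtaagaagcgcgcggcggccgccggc
Klf6: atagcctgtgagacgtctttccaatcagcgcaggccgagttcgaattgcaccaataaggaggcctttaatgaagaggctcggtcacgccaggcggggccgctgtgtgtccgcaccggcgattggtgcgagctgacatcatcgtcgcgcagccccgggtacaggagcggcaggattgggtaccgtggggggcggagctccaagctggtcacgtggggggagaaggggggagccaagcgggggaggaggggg
Klf2 held 1 match to CTANNNNTAG, from 118 to 109 bases before the start, a motif found in 3.20% of 32851 RefSeq windows of the same length. It also held 2 matches to GGGGCGGGG, and Klf4 held 3, against 10.4% of the windows with at least 1. No match to either motif was found in these letters for Klf6. The GC content was 71.2% for Klf2, 74.0% for Klf4 and 64.8% for Klf6. A match is a description of the letters and was not set against the expression values.

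Libraries held 1143 to 6328 cells and 819438 to 5855047 counts, and the median cell held 321 to 1363 counts. Any 2 libraries shared at most 7 cell barcodes. The authors' cell type codes carried their own marker list as the highest of the lists compared for microglia, endothelial, mural, monocyte-derived, granulocyte, T, B and NK cells of the young brain. Dendritic cells and border-associated macrophages, the macrophages of the meninges and perivascular spaces, had the monocyte or macrophage list highest instead, so these 2 names rest on the authors' annotation. The same holds for dendritic cells of the blood, where the monocyte or macrophage list averaged 2826 CPM per gene against 386 for the dendritic list, of which 1 gene was at 0. Precursors, eosinophils and basophils of the blood had the neutrophil list highest, and no list of their own was compared. In 5 of the 12 young brain libraries the median share of mitochondrial counts was under 1% (1 sham, 2 day 2 and 2 day 14 libraries).

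In the young brain Klf2 was highest in endothelial cells, where it averaged 1437 ± 640 CPM (SD, n = 12 libraries). B cells followed with 562 ± 126 CPM (n = 9), then granulocytes with 506 ± 258 (n = 12), NK cells with 427 ± 482 (n = 6), T cells with 336 ± 151 (n = 11) and border-associated macrophages with 321 ± 203 (n = 12). The NK mean was raised by 1 sham library of 21 cells at 1383.5 CPM, and the NK median was 245.5 CPM. NK cells exceeded T cells in only 2 of 6 shared libraries. All means in these orders are over sham and stroke libraries together. Mural cells held 213 ± 120 CPM (n = 3), monocyte-derived cells 170 ± 162, microglia 148 ± 158 and dendritic cells 97.0 ± 82.8 (n = 12 each). Within libraries that held both types, endothelial cells exceeded B cells in 9 of 9, by 1.32 on the log2 scale (exact paired sign-flip permutation test, adjusted p = 0.0422 over 48 pairs of neighbours in the orders). That call was lost when any 1 of those 9 libraries was left out (highest adjusted p = 0.0703). The unadjusted p of that test, 0.00391, was already the smallest that 9 libraries allow. Fewer libraries allow only larger p values, so the loss says little about the size of the difference. No other neighbours in the Klf2 order of the brain differed beyond their spread (adjusted p of 0.686 or more).

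**Figure D1:**
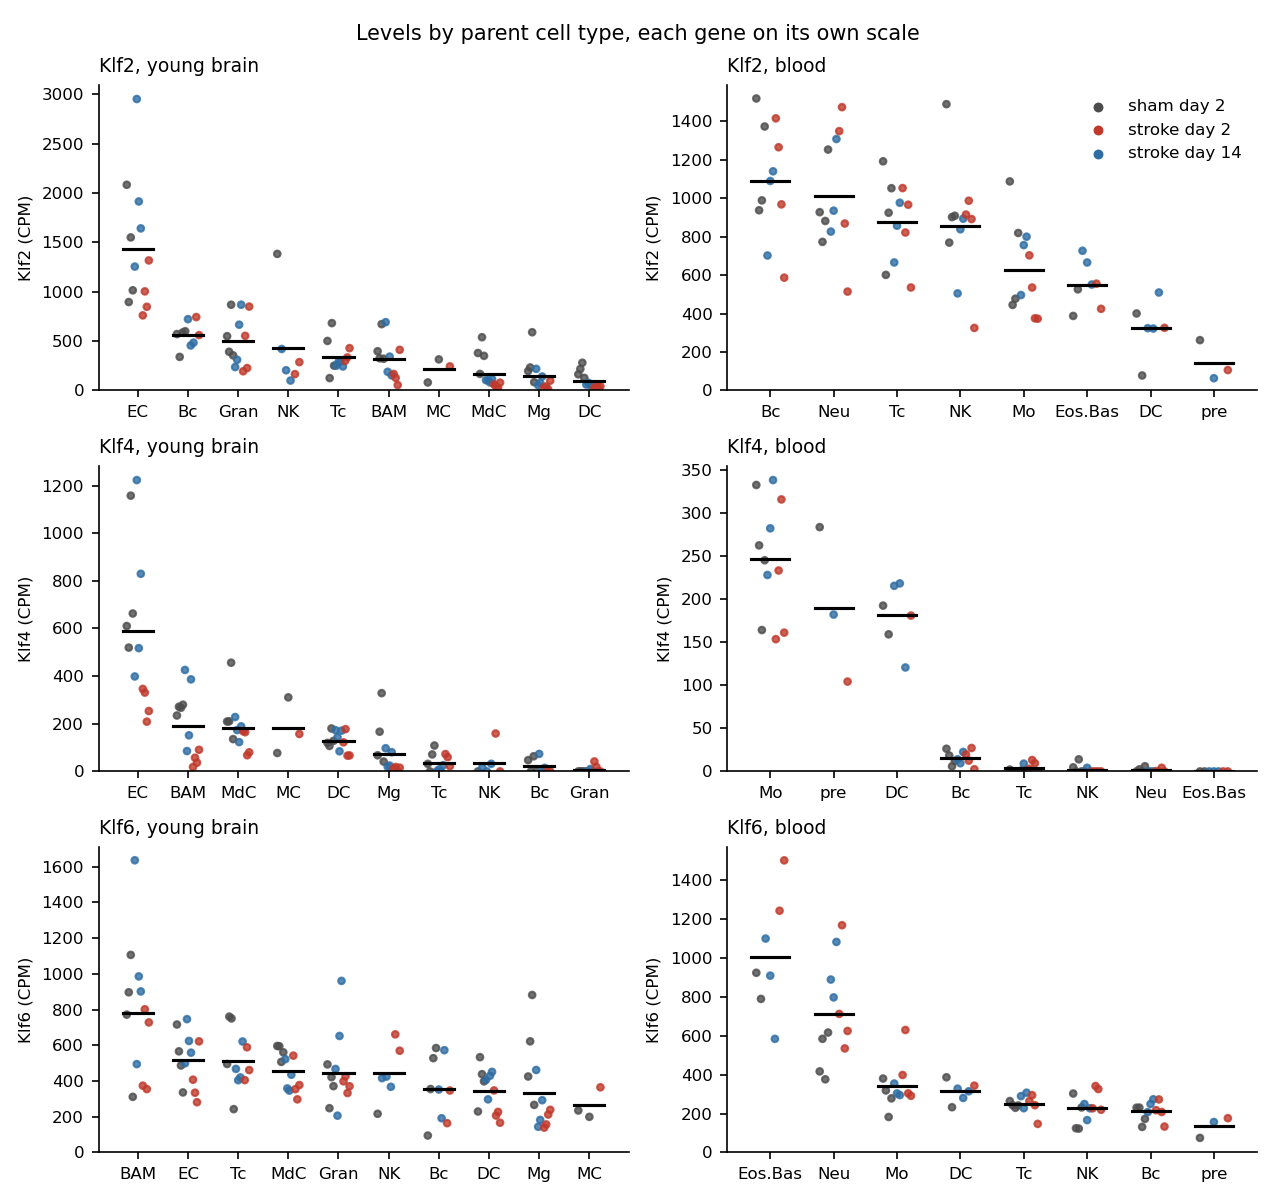
Klf2, Klf4 and Klf6 (CPM, linear axes from 0) by parent cell type in young brain (left) and blood (right), each point 1 library with at least 20 cells of the type and each line the mean; EC is endothelial, Bc, Tc and NK lymphocytes, Gran and Neu neutrophils or granulocytes, BAM border-associated macrophages, MC mural cells, MdC monocyte-derived cells, Mg microglia, DC dendritic cells, Mo monocytes and pre precursors, as coded by the authors. Klf2 and Klf4 are highest in brain endothelium, while Klf4 lies near 0 in brain granulocytes and in lymphocytes and neutrophils of the blood.

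Klf4 was also highest in endothelial cells, with 588 ± 333 CPM, and exceeded the next type, border-associated macrophages (192 ± 138 CPM), in 11 of 12 libraries by 1.91 on the log2 scale (exact sign-flip permutation test, adjusted p = 0.0234). It was lost with at least 50 cells per library and in cells of at least 500 counts. Monocyte-derived cells with 184 ± 99.4 CPM, mural cells with 182 ± 119 and dendritic cells with 128 ± 41.9 came next, and dendritic cells exceeded microglia (72.8 ± 93.5 CPM) in 10 of 12 libraries (exact sign-flip permutation test, adjusted p = 0.0422). That difference was 1.73 on the log2 scale over all 12 libraries and 0.23 in the 4 sham libraries alone, and its call was lost with the omission of any 1 library but sham replicates 2 and 3 (highest adjusted p = 0.0703). T cells held 36.4 CPM, NK cells 34.7 (median 8.65, highest library 159), B cells 22.2 and granulocytes 5.91. In the granulocytes 2 of 1230 cells had a Klf4 count.

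Klf6 was detected in every one of these brain types. Border-associated macrophages held the highest mean, 780 ± 377 CPM, and mural cells the lowest, 266 ± 87.1 CPM. Between them lay endothelial cells (515 ± 152 CPM), T cells (511 ± 157), monocyte-derived cells (458 ± 108), granulocytes (446 ± 199), NK cells (443 ± 156), B cells (354 ± 181), dendritic cells (344 ± 117) and microglia (335 ± 227). In sham libraries alone microglia averaged 549 CPM, above endothelial cells (526), dendritic cells (400), B cells (391) and granulocytes (383). They stood below border-associated macrophages (772), monocyte-derived cells (565) and T cells (562) there. Border-associated macrophages exceeded endothelial cells in 9 of 12 libraries, which did not pass the adjusted threshold (exact sign-flip permutation test, adjusted p = 0.171), and no pair of neighbours in this order did.

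Cldn5, which codes for claudin-5 of the endothelial tight junction, was taken as a marker of endothelial RNA counted in other types. It stood at a median of 0% of its endothelial level in microglia, and at 0.963% in the highest library. Klf2 in microglia stood at a median of 7.88% of its endothelial level, Klf4 at 6.21% and Klf6 at 55.9%. The step that made the deposited counts fractional is not stated. Cldn5 therefore cannot show how much of these levels is endothelial RNA.

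For Klf2 in blood only neighbours in the order of types were tested, and none differed beyond their spread. B cells held 1090 ± 293 CPM, neutrophils 1010 ± 294, T cells 877 ± 205, NK cells 857 ± 290 and monocytes 624 ± 226 (n = 11 libraries each). Eosinophils and basophils held 548 ± 121 CPM (n = 7), dendritic cells 327 ± 142 (n = 6) and precursors 144 ± 104 (n = 3). NK cells exceeded monocytes in 10 of 11 libraries (exact sign-flip permutation test, adjusted p = 0.0703). B cells, which are not neighbours of monocytes in the order, exceeded them in every library, a difference that was not tested.

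Klf4 was high in monocytes, precursors and dendritic cells of the blood and low in its other types. Monocytes held 247 ± 67.4 CPM (n = 11), precursors 190 ± 90.0 (n = 3) and dendritic cells 181 ± 37.0 (n = 6), while B cells held 15.6 ± 8.07 CPM, T cells 3.60 ± 4.74, NK cells 2.09 ± 4.35 and neutrophils 1.18 ± 2.12 (n = 11 each). A Klf4 count was found in 16.2% of 6558 monocytes and in 0.0233% of 17186 neutrophils, with median counts per cell of 433 to 1306 and 345 to 901 over libraries. None was found in 317 eosinophils and basophils, which allows a share of up to 0.946% of cells with a count by a limit of 3 counts, for counting error only. Dendritic cells exceeded B cells in 6 of 6 libraries, which did not pass after adjustment (exact sign-flip permutation test, adjusted p = 0.188). B cells exceeded T cells in 10 of 11 libraries by 2.33 on the log2(CPM + 1) scale and by 0.91 on the log2(CPM + 10) scale (exact sign-flip permutation test, adjusted p = 0.0422 on both). This call was lost with the omission of any 1 library but day 2 replicates 2 and 4 and day 14 replicate 2 (highest adjusted p = 0.0562). Klf6 was highest in eosinophils and basophils, with 1008 ± 303 CPM (n = 7), and in neutrophils, with 710 ± 255 CPM, a difference that did not pass (6 of 7 libraries, exact sign-flip permutation test, adjusted p = 0.686). Neutrophils exceeded monocytes (340 ± 112 CPM) in 11 of 11 libraries by 1.04 on the log2 scale (exact sign-flip permutation test, adjusted p = 0.0234).

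Profiles were compared across 18 brain and blood types on the scale of log2(mean CPM + 1). On that scale the profile of Klf2 ran against that of Klf4 (Pearson r = -0.453) and was nearly unrelated to that of Klf6 (r = 0.177), and Klf4 and Klf6 had r = -0.225. Brain endothelium held the highest mean CPM of both Klf2 and Klf4 among these types, and r was not computed on linear CPM. Among 8475 genes, those most like Klf2 were Arhgef3 (r = 0.839), a guanine nucleotide exchange factor for RhoA, and Crebrf (r = 0.799). For Klf4 they were Cep290 (r = 0.937) and Scarb1 (r = 0.919), the HDL receptor SR-BI. For Klf6 they were Ier2 (r = 0.806), Kdm6b (r = 0.784), a histone H3K27 demethylase, and Junb (r = 0.766), an AP-1 subunit. These correlations are over cell types that share libraries and depth, and they describe the profiles only.

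All 3 factors fell in young microglia at day 2 after stroke. Klf2 in the sham libraries stood at 197, 233, 590 and 83.7 CPM, and in the day 2 libraries at 29.0, 40.5, 10.2 and 98.8 CPM. The day 2 libraries of replicates 1 and 2 lay below every sham library and that of replicate 4 lay above the lowest one, so the groups overlapped. Klf2 fell by 2.10 ± 0.66 on the log2 scale (fold change ± SE), from a mean of 276 ± 219 to 44.7 ± 38.2 CPM (SD, n = 4 and 4; edgeR quasi-likelihood test, adjusted p = 0.0278). Klf4 stood at 67.6, 167, 329 and 41.3 CPM after sham and at 11.5, 18.6, 1.32 and 15.7 CPM at day 2. The day 2 libraries of replicates 1, 2 and 4 lay below every sham library, and the fall was 3.17 ± 0.75 (edgeR, adjusted p = 0.00687). Klf6 stood at 425, 622, 882 and 266 CPM after sham and at 139, 157, 212 and 239 CPM at day 2. These groups did not overlap, and the fall was 1.43 ± 0.43 (edgeR, adjusted p = 0.0244). All 3 of the factors were thus called lower, in a comparison where 31.4% of 10145 tested genes were called and 15.7% were called lower, with a median of -0.05 over all genes.

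The sham library with the highest values and the day 2 library with 58 microglia, both of replicate 3, weighed on these values. That day 2 library held 26321 microglial counts, where a floor of 3 counts stands at 114 CPM, so its 0.3 counts of Klf2 and 0.0 of Klf4 do not place it below the lowest sham library, and its Klf6 value rests on 5.6 counts. Without it the change was -2.02 for Klf2, -3.14 for Klf4 (edgeR, adjusted p = 0.0143) and -1.42 for Klf6 (adjusted p = 0.0459). Without the sham library of replicate 3 the fall of Klf2 was 1.34 (edgeR, adjusted p = 0.133) and that of Klf6 was 1.00 (adjusted p = 0.118). The Klf2 call was also lost without the day 2 library of replicate 1 (edgeR, adjusted p = 0.107), 2 (0.0690) or 3 (0.0513), and the Klf6 call without the sham library of replicate 2 (0.0595) or the day 2 library of replicate 1 (0.108) or 2 (0.0614). Klf4 stayed lower at the threshold whichever 1 of the 8 libraries was left out, with changes of -3.46 to -2.40 and a highest adjusted p of 0.0354.

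**Figure D2:**
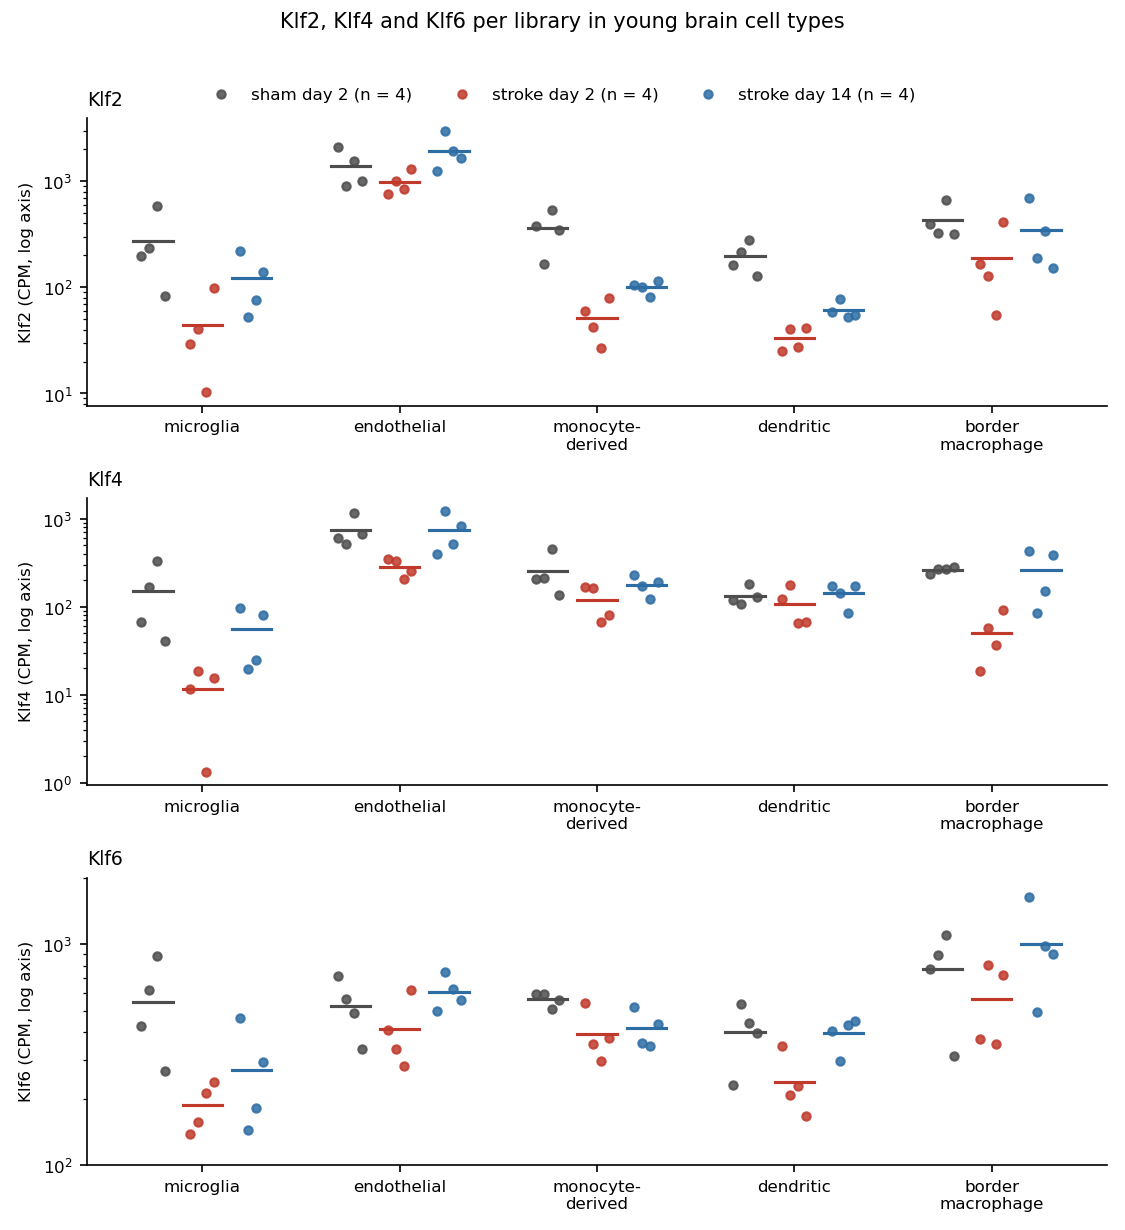
Klf2, Klf4 and Klf6 (CPM, log axes) per library in 5 young brain cell types; points are libraries (4 per group), lines are group means. In microglia the day 2 mean is the lowest for all 3 genes, in endothelial cells and border-associated macrophages the day 2 libraries lie below every sham library for Klf4, and in monocyte-derived and dendritic cells those of both stroke times lie below every sham library for Klf2.

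At day 14 the microglial levels lay between those of sham and day 2. Klf2 stood at 219, 52.3, 76.8 and 141 CPM, Klf4 at 97.3, 19.6, 24.6 and 80.7 CPM, and Klf6 at 462, 144, 182 and 293 CPM. For each gene 2 of the 4 libraries were below every sham library and the other two were not. The log2 differences from sham were -0.72 ± 0.59, -1.01 ± 0.61 and -0.58 ± 0.41 for Klf2, Klf4 and Klf6, and 0 of the 3 passed the test, where 15.2% of all genes did. Every day 14 library held more Klf4 than the day 2 libraries of replicates 1, 2 and 4, and the thin one of replicate 3 cannot be placed. The difference of 2.17 ± 0.73 between the stroke times did not pass in edgeR (adjusted p = 0.0910, with 6.93% of genes called) and passed with DESeq2 (2.31, adjusted p = 0.0200).

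Early response genes moved with these levels in microglia. Of 20 such genes (Fos, Jun, Egr1 and others that cells switch on within minutes of a stimulus, dissociation included), 7 fell at day 2 and 0 rose, with a median of -1.33, where 15.7% of all genes were called lower. Fosb, an AP-1 subunit, changed most with -2.81 ± 0.88, and Btg1 least with -1.33 ± 0.33. Their summed level was 5692 to 22829 CPM in the sham libraries, 2109 to 7853 CPM at day 2 and 3755 to 28145 CPM at day 14. The authors' fine types Mg2 and Mg6 held the most of all 3 factors (468 and 346 CPM of Klf2, 237 and 200 CPM of Klf4, 808 and 713 CPM of Klf6) and also the highest sums of early response genes (23160 and 33164 CPM). Together they made up 26.2% to 54.5% of microglia in sham libraries, 1.59% to 14.6% at day 2 and 2.09% to 29.4% at day 14. Within Mg2, pooled over libraries, Klf4 was 256 CPM after sham and 57.4 CPM at day 2, while Klf2 was 476 and 512 CPM and Klf6 was 835 and 737 CPM. Only 2 day 2 libraries held at least 20 Mg2 cells, with 0.0 and 64.6 CPM of Klf4, and most of the Mg2 and Mg6 cells of day 2 came from replicate 4, so these day 2 values rest largely on 1 library. The part of the early response and of the fine types in the fall was not tested.

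**Figure D3:**
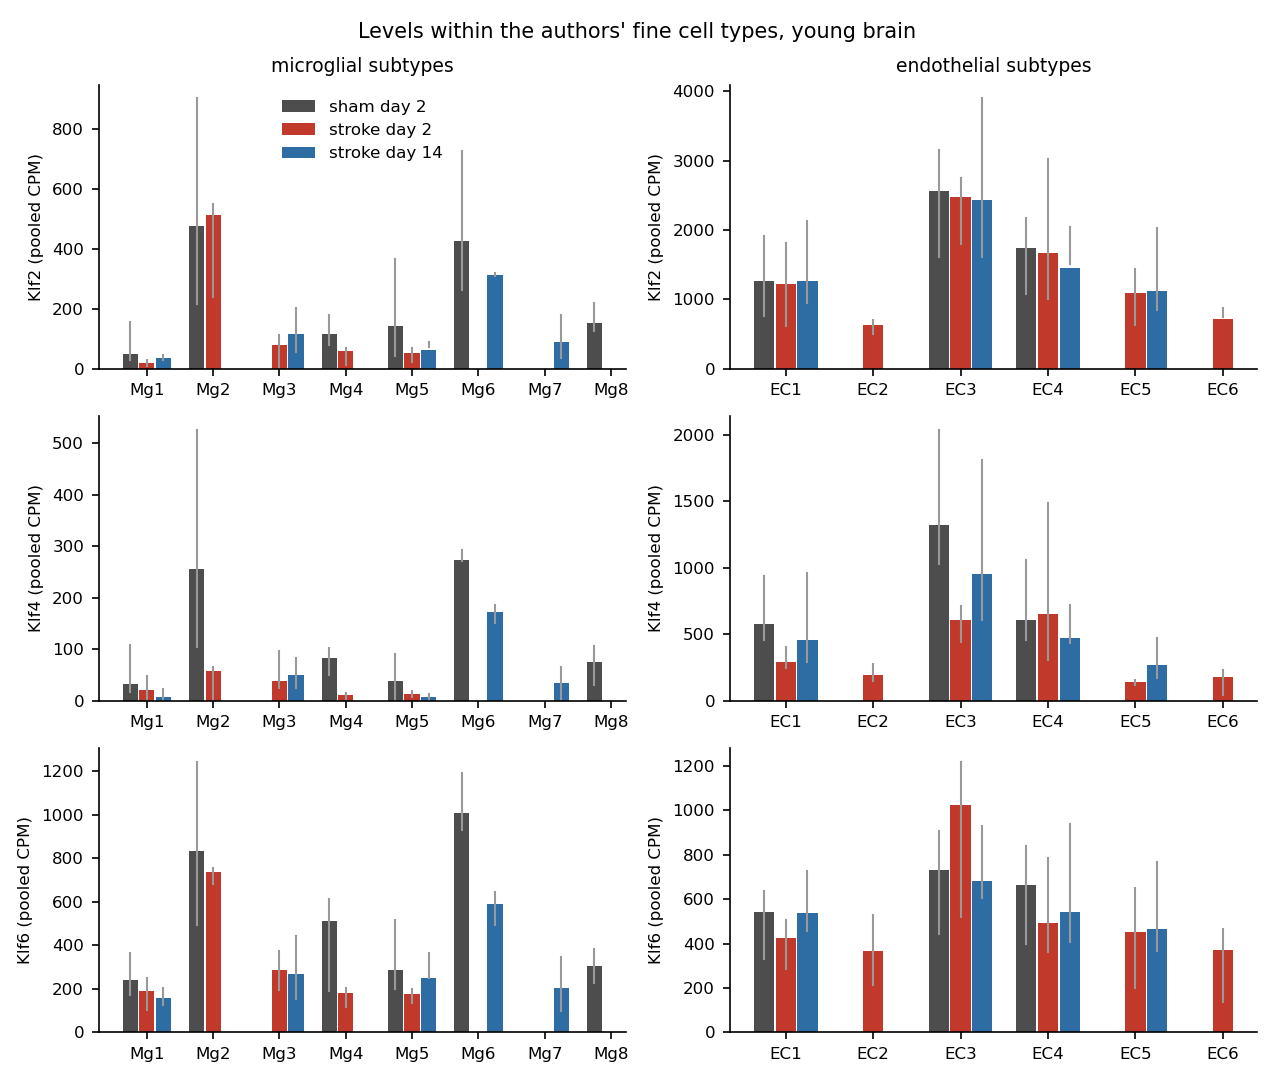
Pooled CPM (bars, axes from 0) of Klf2, Klf4 and Klf6 in the authors' microglial (left) and endothelial (right) fine types by young brain group, with grey lines from the lowest to the highest library of at least 20 cells; a bar is drawn only for at least 100 cells and at least 2 such libraries. Mg2 and Mg6 hold the highest microglial levels and EC3 the highest endothelial levels drawn, except for Klf4 at day 2, where EC4 held more. EC7, which is not drawn, held 1038 CPM of Klf4 and 960 of Klf6 over all groups, against 928 and 773 in EC3. Within Mg2 and EC3 the day 2 bar is the lowest for Klf4 and not for Klf2 in Mg2.

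Other members of the KLF and SP family fell in the same cells. Of 11 tested besides the 3 factors, 5 fell at day 2 and 0 rose, with a median of -0.99, beside 15.7% of all genes called lower, 15.7% called higher and a median of -0.05: Sp4 changed by -1.74 ± 0.37, Klf12 by -1.60 ± 0.51, Klf3 by -1.26 ± 0.21, Klf7 by -1.26 ± 0.29 and Klf13 by -0.99 ± 0.25. Among 12 tested genes of the route to Klf2 and Klf4, 5 fell and 0 rose (median -0.95). These were Map3k3, the kinase MEKK3 at its head, with -2.23 ± 0.52, the transcription factors Mef2a with -2.03 ± 0.34 and Mef2c with -1.34 ± 0.45, and Ccm2 (-1.19 ± 0.25) and Krit1 (-0.78 ± 0.23) of the cerebral cavernous malformation complex, which restrains that kinase. Of 3 ubiquitin ligase genes that act on KLF proteins, Fbxw7 fell by 1.34 ± 0.40 and the other two did not pass, a share near the 31.4% of all genes called. Of 10 genes linked to Klf6, 2 were called higher and 2 lower, close to the shares over all genes: Cdkn1a, a cell cycle inhibitor, rose by 1.80 ± 0.41 and Tgfbr1, a TGF-beta receptor, fell by 1.90 ± 0.37. Of 9 tested genes of monocyte differentiation 2 fell, also near the share over all genes, Maf by 1.60 ± 0.43 and Zeb2 by 1.20 ± 0.29.

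In young endothelial cells Klf4 was lower at day 2, and at day 14 its mean was close to that of sham. It stood at 610, 520, 1158 and 663 CPM after sham, at 346, 331, 209 and 254 CPM at day 2 and at 399, 1223, 517 and 830 CPM at day 14. The day 2 libraries lay below every library of the other two groups. Klf4 fell by 1.27 ± 0.35 at day 2 (738 ± 286 to 285 ± 64.9 CPM; edgeR, adjusted p = 0.0274), and from day 2 to day 14 it rose by 1.29 ± 0.35, to 742 ± 369 CPM (edgeR, adjusted p = 0.0275). Between day 14 and sham the difference was 0.02 ± 0.35, with 2 of the 4 day 14 libraries below every sham library and 1 above all of them. At day 2, 1 of the 3 factors was called, where 13.3% of 5833 genes were called and 6.45% were called lower. Between the stroke times 1 of the 3 was called, with a background of 11.2% (5.07% called higher and 6.14% lower). Between day 14 and sham edgeR called 0% of all genes and DESeq2 10 of them, and in edgeR 356 had an unadjusted p under 0.05.

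These endothelial calls stood close to the threshold. The fall of Klf4 at day 2 lost its call without the sham library of replicate 2 (edgeR, adjusted p = 0.0504), 3 (0.124) or 4 (0.0656), or the day 2 library of replicate 1 (0.0526), 3 (0.0803) or 4 (0.0742), with changes of -1.40 to -0.97 over all 8 omissions. The rise to day 14 lost its call without the day 2 library of replicate 1 (edgeR, adjusted p = 0.0562), 3 (0.0858) or 4 (0.0810), or the day 14 library of replicate 2 (0.118) or 4 (0.0838).

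Klf2 in endothelium stood at 2084, 896, 1550 and 1015 CPM after sham, at 760, 1004, 848 and 1317 CPM at day 2 and at 1255, 2953, 1915 and 1642 CPM at day 14. The sham and day 2 libraries overlapped, and 3 of the day 14 libraries lay above every day 2 library. The log2 difference was -0.37 ± 0.31 at day 2 (edgeR, adjusted p = 0.441), and 0.88 ± 0.31 from day 2 to day 14 (adjusted p = 0.0803, and 0.0446 with DESeq2). Klf6 ranged from 336 to 717 CPM after sham, from 281 to 622 CPM at day 2 and from 499 to 747 CPM at day 14, and differed by -0.26 ± 0.28, 0.19 ± 0.28 and 0.46 ± 0.28 in the 3 comparisons, none of them called. Whether the fall of Klf4 was larger than that of Klf2 in these cells was not tested.

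Among genes that KLF2 or KLF4 are known to lower in endothelium, 3 of 5 tested rose at day 2 and 0 fell, where 6.89% of all genes rose. Edn1, the precursor of the vasoconstrictor endothelin-1, rose by 1.28 ± 0.29, from 468 ± 172 to 1055 ± 275 CPM, and fell by 1.63 ± 0.29 from day 2 to day 14. Vwf, the clotting factor that tethers platelets, rose by 1.08 ± 0.31 and fell by 1.07 ± 0.31 again. Selp, the adhesion molecule P-selectin, had no count in the sham libraries and 45.7 ± 21.4 CPM at day 2, at least 12.5-fold higher against a floor of 3 counts over the sham group. Without a sham count Selp could only come out higher, so it adds nothing to that tally. Of 5 tested genes that these factors are known to raise, 0 passed at day 2, and Tek, the receptor of angiopoietins, rose by 0.77 ± 0.19 from day 2 to day 14. In the KLF and SP family 2 of 10 fell at day 2, where 6.45% of all genes were called lower, Klf9 by 1.20 ± 0.26 and Klf13 by 1.05 ± 0.29, and both rose again to day 14, by 1.23 ± 0.26 and 0.98 ± 0.29. Mef2a fell by 1.14 ± 0.33 at day 2 and was the only called gene of 12 on the route to Klf2 and Klf4, a share near that of all genes (6.45% called lower).

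In endothelial cells the early response genes moved with Klf4 at day 2 and between the stroke times. At day 14 against sham neither Klf4 nor any early response gene was called, where edgeR called 0% of all genes. At day 2, 3 of 19 fell (Fosb by 1.68 ± 0.46, Jun by 1.46 ± 0.37 and Jund by 1.24 ± 0.30), beside 6.45% of all genes. From day 2 to day 14, 10 of 19 rose, beside 5.07% of all genes, with a median of 1.35, from 1.07 ± 0.33 for Junb to 2.69 ± 0.44 for Fosb. The summed level was 6796 to 10575 CPM after sham (median 8402), 4416 to 7906 CPM at day 2 (median 5105) and 9662 to 18651 CPM at day 14 (median 13984). The day 14 median thus lay above every sham library, though the libraries of day 14 and sham overlapped. Klf4 differed from sham by 0.02 ± 0.35 on the log2 scale. Whether the sum and Klf4 changed differently was not tested. The fine type EC2 made up 0.339% to 5.50% of endothelial cells after sham, 32.7% to 59.2% at day 2 and 0.316% to 4.75% at day 14, and EC3, which held 2465 CPM of Klf2 over all groups, made up 3.73% to 13.7%, 3.49% to 14.8% and 22.1% to 36.3%. Within EC1, pooled over libraries, Klf4 was 574 CPM after sham, 291 at day 2 and 458 at day 14, and within EC3 it was 1319, 605 and 950 CPM. In EC4 it was 610, 648 and 472 CPM. The part of the early response and of the fine types in the change of Klf4 over the whole endothelium was not tested.

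In monocyte-derived cells of the brain, which are monocytes and the macrophages that arise from them, Klf2 alone of the 3 factors was called. Klf2 stood at 379, 167, 539 and 350 CPM after sham, at 60.2, 42.0, 27.0 and 78.6 CPM at day 2 and at 104, 101, 80.7 and 115 CPM at day 14. The 3 groups did not overlap. Klf2 fell by 2.28 ± 0.38 at day 2, from 359 ± 152 to 51.9 ± 22.4 CPM (edgeR, adjusted p = 0.00248), and the fall at day 14 was 1.39 ± 0.38, to 100 ± 14.4 CPM (adjusted p = 0.0466). The background was 6.71% of 8080 genes called at day 2 (1.05% called lower) and 5.15% at day 14 (0.941% called lower), while 1.79% were called between the stroke times. The sham libraries held only 43 to 99 of these cells. The fall at day 2 passed whichever library was left out, with a highest adjusted p of 0.0297. The call at day 14 was lost with each of the 8 omissions, with changes of -1.54 to -1.08 and adjusted p of 0.0624 to 0.242 in edgeR.

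Klf4 in these cells stood at 209, 210, 457 and 136 CPM after sham, at 169, 165, 67.9 and 80.2 CPM at day 2 and at 228, 174, 123 and 189 CPM at day 14, and Klf6 ranged from 507 to 596 CPM, from 297 to 542 CPM and from 346 to 522 CPM. Groups overlapped for both genes. The log2 difference from sham was -0.61 ± 0.38 for Klf4 and -0.05 ± 0.25 for Klf6 at day 2, while all genes had a median of 0.29. The scaling of libraries bears on such small values: for Klf6 at day 14 it was 0.00 ± 0.25 with the TMM method and -0.41 without it. The fine type MdC3 made up 67.4% to 91.5% of these cells after sham, 11.8% to 16.6% at day 2 and 8.10% to 20.1% at day 14. Within MdC3, pooled over libraries, Klf2 was 461 CPM after sham, 104 CPM at day 2 and 245 CPM at day 14. Early response genes summed to 13108 to 17783 CPM after sham, 12430 to 19045 CPM at day 2 and 14769 to 20874 CPM at day 14.

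Of the family, Klf13 fell in the same cells by 1.07 ± 0.30 at day 2 and by 1.36 ± 0.31 at day 14, the only 1 of 10 tested that passed at either time, beside 6.71% and 5.15% of all genes called (1.05% and 0.941% called lower). Of 9 tested genes linked to Klf6, 4 rose at day 2, where 5.66% of all genes rose, and 0 fell, though Klf6 itself was not called. Mmp14, a membrane-bound matrix protease, rose by 3.09 ± 0.72 and Hif1a, the hypoxia-inducible factor, by 1.70 ± 0.32. Tgfbr1 rose by 2.53 ± 0.56, and Plau, the urokinase gene, had no count in sham cells and was at least 3.24-fold higher at day 2. Without a sham count Plau could only come out higher, so it adds nothing to that tally. Of 3 tested genes that KLF2 or KLF4 are known to lower in endothelium, Ccl2, a monocyte chemokine, rose by 3.25 ± 0.47, from 249 ± 149 to 1551 ± 669 CPM, and the other two did not pass. Of 2 tested genes that these factors are known to raise there, Hmox1, which codes for a heme oxygenase, rose from 59.2 ± 18.8 to 392.5 ± 122 CPM (edgeR, adjusted p = 0.000527). Of 4 tested genes of lymphocyte trafficking 2 rose and 0 fell. Il7r, the receptor of interleukin 7, had no count in sham cells and was at least 8.07-fold higher at day 2, and Cd69, an early activation antigen, rose by 2.14 ± 0.54. Il7r too could only come out higher and adds nothing to its tally. In monocytes of the blood Klf2 was 707 ± 305 CPM after sham and 497 ± 157 CPM at day 2, values from separate tables that are set beside the brain values without a test.

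**Figure D4:**
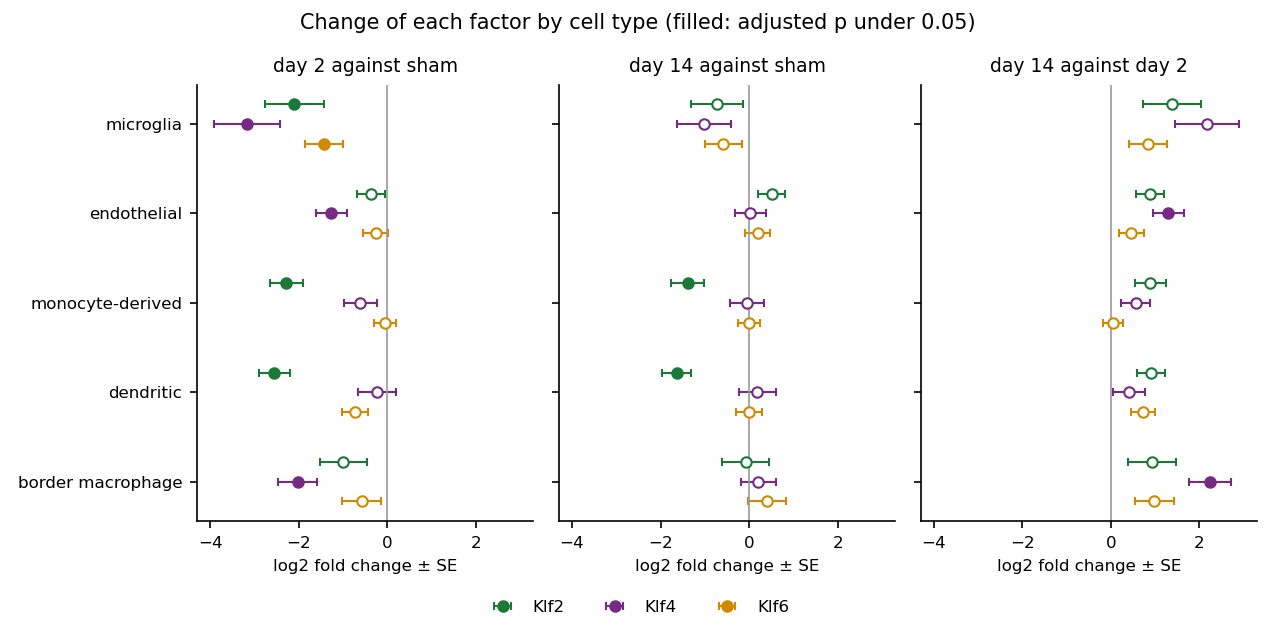
Log2 fold change (x axis, points) with standard error (bars) of Klf2, Klf4 and Klf6 in 5 young brain cell types for the 3 comparisons; filled points passed the edgeR test at an adjusted p under 0.05. At day 2 all 7 filled points lie left of 0, at day 14 against sham 2 filled Klf2 points do, and from day 2 to day 14 the 2 filled points are Klf4 to the right of 0.

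In 2 further types of the brain, named by the authors' annotation, Klf2 was called in dendritic cells and Klf4 in border-associated macrophages. Klf2 in dendritic cells stood at 163, 217, 281 and 127 CPM after sham, at 24.9, 40.5, 27.2 and 41.1 CPM at day 2 and at 59.0, 76.9, 52.6 and 54.6 CPM at day 14, with no overlap between any of the groups. It fell by 2.56 ± 0.35 at day 2 (edgeR, adjusted p = 0.00466) and by 1.64 ± 0.33 at day 14 (adjusted p = 0.0258), where 1.01% and 1.53% of 4365 genes were called (0.321% and 0.504% called lower). The call at day 2 held with every library left out, and that at day 14 was lost with 7 of 8 omissions (adjusted p of 0.0554 to 0.115), every 1 but the day 14 library of replicate 2. It was also lost without the filter on low counts (adjusted p = 0.172) and with counts rounded up (0.0528). Of the dendritic fine types, DC7 made up 26.1% of the pooled cells after sham, 1.56% at day 2 and 2.34% at day 14, and DC3 10.6%, 34.7% and 5.67%. The part of these shifts in the fall of Klf2 was not tested. Klf4 and Klf6 were not called in these cells, and none of the 3 factors was called between the stroke times, where 0.893% of genes were.

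Klf4 in border-associated macrophages stood at 235, 272, 267 and 280 CPM after sham, at 18.5, 57.4, 36.7 and 90.8 CPM at day 2 and at 426, 85.5, 152 and 386 CPM at day 14. The day 2 libraries lay below every sham library, and 3 of the day 14 libraries lay above every day 2 library. The lowest Klf4 count of a library was 0.9 at day 2 and 1.0 at day 14. Both are under the floor of 3 counts, so the places of these libraries are uncertain. It fell by 2.03 ± 0.45 at day 2 (edgeR, adjusted p = 0.0304) and rose by 2.24 ± 0.47 from day 2 to day 14 (adjusted p = 0.0317), where 2.67% of 1313 genes were called at day 2 (0.914% lower) and 0.838% between the stroke times (0.381% higher). At day 14 against sham 0.0762% of genes were called and none of the 3 factors. At day 2 the call was lost without the sham library of replicate 2, 3 or 4 or the day 2 library of replicate 3 or 4 (adjusted p of 0.0503 to 0.150), and the rise was lost without any 1 of the day 2 libraries or the day 14 library of replicate 1 or 4 (0.0542 to 0.289). Both calls were also lost with the replicate block (0.0599 and 0.0749), without the filter (0.118 and 0.169), with at least 50 cells (0.0706 and 0.0901) and in cells of at least 500 counts (0.157 and 0.242). Libraries held 20 to 282 of these cells. Early response genes summed to 16411 to 23925 CPM after sham, 5586 to 16610 CPM at day 2 and 12283 to 35615 CPM at day 14, while the fine type BAM4 made up 1.70% of the pooled cells after sham, 26.9% at day 2 and 2.34% at day 14. The part of either was not tested. In granulocytes and T, B and NK cells of the brain, where Klf4 was too low to be tested, 0 of 20 tests of Klf2 and Klf6 passed in edgeR or DESeq2, with 0 at an unadjusted p under 0.05 in edgeR and log2 differences of -0.59 to 0.54. Over these types and comparisons 4.41% of gene tests were called.

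Over the young brain, 7 of 21 tests of the 3 factors in 8 types were called lower at day 2 and 0 higher, and over the same types 6.55% of the tests of all genes were called lower. At day 14 against sham 2 of 21 were called lower, both Klf2, with 2.18% over all genes. Between the stroke times 2 of 23 were called higher, both Klf4, with 2.25% over all genes. The exact permutation test has a smallest p of 0.0286 with 4 libraries against 4 and of up to 0.333 in smaller groups. Of 147 such tests over young brain, blood and aged brain, 0 passed after adjustment (lowest adjusted p = 0.350). With so large a smallest p, a pass would need a large share of all 147 tests to stand at it. The 0 therefore says little about the edgeR calls. As differences of mean log2(CPM + 1), the direction of each called value was the same within libraries under 1% and within those at 1% or more of mitochondrial counts, although the former hold only 1 sham library.

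In blood 0 of 45 tests of the 3 factors in 7 types were called by edgeR or DESeq2, and 4 had an unadjusted p under 0.05 in edgeR, where 0.702% of the tests of all genes were called. Klf6 in neutrophils came nearest. It stood at 417, 585, 376 and 617 CPM after sham, at 713, 1169, 535 and 625 CPM at day 2 and at 889, 797 and 1083 CPM at day 14. Every day 14 library lay above every sham library, and the log2 difference was 0.57 ± 0.22 (edgeR, adjusted p = 0.141, with 5.99% of 4944 genes called), or 0.91 without TMM scaling (adjusted p = 0.0459). The fine type Neu3 made up 5.23% of the pooled neutrophils after sham and 72.2% at day 14, and Neu1 30.4% and 3.22%. Within Neu3, pooled over libraries, Klf6 was 538 CPM after sham and 992 CPM at day 14. Over all neutrophils Klf6 differed from sham by 0.60 ± 0.21 at day 2 (edgeR, adjusted p = 0.997). In that comparison edgeR and DESeq2 called 0 genes, and 209 had an unadjusted p under 0.05 in edgeR. In monocytes Klf2 differed by -0.49 ± 0.29, Klf4 by -0.23 ± 0.24 and Klf6 by 0.46 ± 0.23 at day 2.

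In the aged brain Klf2 fell at day 2 in monocyte-derived cells. It stood at 851 CPM (female) and 1180 CPM (male) after sham, and at 62.9 and 95.7 CPM (females) and 70.3 CPM (male) after stroke. No stroke library came near a sham library, and Klf2 fell by 3.06 ± 0.48 (edgeR, adjusted p = 0.00330, with 2.56% of 8167 genes called and 0.245% called lower). With 1 of the 2 sham libraries left out it did not pass (adjusted p = 0.0700 without the male and 0.0574 without the female), where the lone sham library is assumed to vary like the other groups, and these sham libraries held 33 and 52 of the cells. Of 13 tests in 5 aged types this was the 1 called by edgeR, where 1.92% of the tests of all genes were called. MdC3 made up 94.1% of the pooled monocyte-derived cells after sham and 13.8% at day 2, and within MdC3 Klf2 was 1042 and 182 CPM. DESeq2 also called Klf4 lower in these cells (-1.87, adjusted p = 0.0217).

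In aged microglia Klf2 stood at 203 and 254 CPM after sham and at 60.4, 21.0 and 56.0 CPM at day 2, and Klf4 at 59.4 and 49.6 CPM and at 13, 17.8 and 24.1 CPM. Stroke libraries lay below both sham libraries for both genes, and the log2 differences of -2.12 ± 0.72 and -1.55 ± 0.73 did not pass in edgeR (adjusted p = 0.147 and 0.312, with 2.30% of 11096 genes called and 0.523% called lower). Klf6 stood at 340 and 172 CPM after sham and at 362, 69.6 and 416 CPM at day 2, with overlap and a difference of 0.24 ± 0.60 (adjusted p = 0.919 in edgeR). In aged endothelium Klf2 stood at 2081 and 2221 CPM after sham and at 609, 1293 and 802 CPM at day 2, without overlap, with a difference of -1.21 ± 0.38 (edgeR, adjusted p = 0.168, with 0.606% of 6604 genes called and 0.182% called lower), and Klf4 at 586 and 488 CPM and at 370, 372 and 235 CPM, with -0.69 ± 0.35 (adjusted p = 0.452). DESeq2 called Klf2 lower in both types (adjusted p = 0.0329 in microglia and 0.0371 in endothelium), and edgeR without the filter called it in microglia (adjusted p = 0.00921). In the aged brain Mg4 made up 0.111% of the pooled microglia after sham and 41.5% at day 2, and EC2 made up 2.92% and 62.7% of the endothelial cells, and the part of these shifts was not tested. The difference of the stroke effect between aged and young mice was called in 0 of 13 tests by edgeR and by DESeq2, with 0 at an unadjusted p under 0.05 in edgeR. The nearest was Klf6 in microglia, with a difference of 1.62 ± 0.78. Over all genes of these types edgeR called 0% as well. The young libraries are all male and the aged ones are of both sexes, so age and sex cannot be fully told apart. With 2 aged sham libraries the test is weak, and the 0 does not show that the ages respond alike. The single aged library of day 14 held 89.6 CPM of Klf2, 55.9 of Klf4 and 271 of Klf6 in microglia, 1563, 441 and 433 CPM in endothelium, and 373, 104 and 498 CPM in monocyte-derived cells.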

How the data were processed

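Per the files' values, the authors deposited expected counts for each gene in each cell that are not whole numbers, and no label or file header states the step that made them fractional. Per the submitters' processing notes, Seurat and the mm10 build were used. The aligner is not given in the sources used here. The authors' metadata give each cell's total of expected counts, its count of genes, its percent of mitochondrial counts and its cell type code at 2 levels.

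All deposited cells were kept. Counts were summed per library and parent type, with at least 20 cells, rounded to whole numbers and tested with edgeR 4.0.16 (quasi-likelihood, TMM scaling, filterByExpr, at least 2 libraries per group, R 4.3.3). Benjamini-Hochberg adjustment was made over every gene tested, and "called" means an adjusted p under 0.05. Tests are two-sided. Young brain, blood and the 4 brain groups of day 2 were fitted separately. Levels are CPM without TMM. A summed level does not tell fewer cells with the transcript from less of it per cell. The fit was tested on simulated counts of microglia, endothelium and blood neutrophils at day 2 against sham, with the same set spread for all genes. Other types and the aged brain were not simulated. Replicates are separate pools of mice per the labels, and p values measure the spread between those libraries.

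The 3 genes and the lists were chosen with earlier results of these data known. List genes were named as those with the largest and smallest called change and a mean of at least 20 CPM, and where 5 or fewer passed, the others were named after their values were seen. Same-numbered libraries were not treated as pairs. Alternatives were DESeq2 1.42.0, no TMM, no filter, each library left out, a replicate block, only the compared groups, counts rounded up per cell, at least 50 cells, cells with at least 500 counts and sex as a covariate. A term for the mitochondrial share and the omission of the 5% deepest cells were added after seeing the data, the latter in place of a doublet caller. Doublets were not removed.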

Additional observations from a re-analysis of the deposited data

How the results depend on the processing

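Of 753 values of 83 results under other settings, 681 kept their direction and their side of the threshold, 25 lost a call, 9 gained one and 38 changed sign. Of 690 values with 1 library left out, 561 kept both, 74 lost a call and 55 changed sign. Each change of sign was of a difference that was not called. In the young brain the falls of Klf4 in microglia and of Klf2 in monocyte-derived and dendritic cells at day 2 passed under every alternative run. For all other changes the cause was not tested, except that fewer libraries or genes entered some fits.

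The fall of Klf2 in monocyte-derived cells at day 14 lost its call without the filter (-1.23), with at least 50 cells (-1.41), with counts rounded up (-1.30) and in cells of at least 500 counts (-1.24). DESeq2 called the rises from day 2 to day 14 of Klf2 in endothelium (0.88; also 1.08 in cells of at least 500 counts) and of Klf4 in microglia (2.31). Without TMM, Klf6 in blood neutrophils was called at day 14 (0.91).

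Deviations of same-numbered libraries from their group means correlated above 0.1 in 5 of 12 pairs in microglia, 6 of 12 in endothelium and 5 of 12 in monocyte-derived cells of the brain, and in blood in 3 of 10 in neutrophils and 5 of 10 each in monocytes and B cells. In these brain types single pairs ranged from -0.370 to 0.641, from -0.108 to 0.577 and from -0.0907 to 0.797, with medians of 0.0597, 0.0714 and 0.0504. The library identifiers of sham and day 2 stroke in blood share a stem for replicates 1 and 2 and not for 3 and 4, and no label says what a number or a stem marks, so the numbers were not taken as pairs. The replicate block changed 3 of 60 calls, and 10 were called with it against 11 without. Klf2 in monocyte-derived cells gained a call between the stroke times (0.97), and Klf4 in border-associated macrophages lost both of its calls (-2.32 and 2.38), as it did under 3 other settings. The block turned the sign of Klf2 in blood monocytes at day 14 (0.06), Klf6 in blood neutrophils between the stroke times (0.04), Klf4 in endothelium at day 14 (-0.07) and Klf6 in dendritic cells at day 14 (0.02).

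Other sign changes were small. Without TMM they were Klf6 in aged monocyte-derived cells (-0.09), Klf2 in microglia as the age difference (0.09), Klf6 in neutrophils between the stroke times (0.29), Klf2 in neutrophils at day 14 (0.11), Klf6 in dendritic cells (0.04) and Klf6 in monocyte-derived cells at day 14 (-0.41). With DESeq2 they were the microglial age difference of Klf2 (0.09), Klf6 in dendritic cells (0.02) and Klf6 in monocyte-derived cells at day 14 (-0.13). Without the filter they were Klf6 as the endothelial age difference (-0.01), Klf4 in border-associated macrophages at day 14 (-0.00), Klf6 (0.37) and Klf4 (0.14) in dendritic cells, Klf4 in monocyte-derived cells at day 14 (0.12) and Klf6 there at day 2 (0.27) and between the stroke times (-0.10). With the mitochondrial term they were Klf6 in dendritic cells (0.02) and, at day 14, Klf4 in endothelium (-0.04) and Klf6 in monocyte-derived cells (-0.04). With counts rounded up they were Klf2 as the microglial age difference (0.05), Klf2 in border-associated macrophages (0.13), Klf6 in dendritic cells (0.09) and Klf6 in monocyte-derived cells at day 14 (-0.10). In cells of at least 500 counts they were the same age difference (0.03), Klf6 in neutrophils (0.01), Klf2 in border-associated macrophages (0.37), Klf6 in dendritic cells (0.08) and Klf6 in monocyte-derived cells at day 2 (0.16). With at least 50 cells they were Klf2 in border-associated macrophages (0.05) and Klf6 in monocyte-derived cells between the stroke times (-0.01) and at day 14 (-0.02). Without the deepest 5% of cells they were Klf6 in neutrophils (0.01) and Klf2 in border-associated macrophages (0.05), and with only the 2 compared groups Klf6 in monocyte-derived cells at day 14 (-0.23).

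In the order of types, differences of level (log2) lost the call in sham libraries alone for Klf2 in endothelial above B cells (1.36), Klf4 in endothelial cells above border-associated macrophages (1.42), Klf4 in dendritic cells above microglia (0.23), Klf4 in blood B above T cells (3.48) and Klf6 in neutrophils above monocytes (0.80), where 4 libraries cannot pass. With at least 50 cells the endothelial pairs lost it (1.52 for Klf2 and 1.38 for Klf4). In cells of at least 500 counts the Klf4 pairs did (1.88 for endothelial cells, 1.95 for dendritic cells and 1.91 for B cells), and without the deepest 5% of cells the dendritic pair did (1.58). With 1 library left out the call was lost in 9 of 12 omissions for the Klf2 pair, 10 of 12 for dendritic cells and 8 of 11 for B cells. The Klf2 pair ranged from 1.23 to 1.48, and the Klf4 pairs of dendritic cells from 1.44 to 1.96 and of B cells from 2.14 to 2.57.

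With 1 library left out, the falls at day 2 ranged from -2.96 to -1.34 for Klf2 in microglia and from -1.40 to -0.97 for Klf4 in endothelium, whose rise to day 14 ranged from 0.91 to 1.53. Klf6 in microglia fell by 1.00 at the least, and its largest change was -1.74. The fall of Klf2 in monocyte-derived cells at day 14 ranged from -1.54 to -1.08. Among uncalled differences, those that changed sign ranged, against sham at day 14, from -0.25 to 0.19 for Klf2 and -0.02 to 0.28 for Klf6 in blood monocytes, from -0.76 to 0.24 for Klf2 and -0.29 to 0.48 for Klf4 in border-associated macrophages, from -0.11 to 0.36 for Klf6 in dendritic cells, from -0.37 to 0.32 for Klf4 in endothelium, and from -0.27 to 0.38 for Klf4 and -0.20 to 0.15 for Klf6 in monocyte-derived cells. At day 2 they ranged from -0.15 to 0.31 for Klf2 in neutrophils, -0.46 to 0.04 for Klf4 in dendritic cells and -0.26 to 0.16 for Klf6 in monocyte-derived cells. Between the stroke times Klf6 ranged from -0.17 to 0.14 in neutrophils and -0.08 to 0.22 in monocyte-derived cells. In aged brain Klf6 ranged from -0.42 to 0.12 in endothelium and -0.21 to 0.83 in microglia, and the age difference ranged from -0.18 to 0.40 for Klf6 in endothelium and -0.68 to 0.75 for Klf2 in microglia.
The alternative of leaving out cells marked by Scrublet was not run. Depth limits the Klf4 value of single libraries in brain lymphocytes and granulocytes and in blood T cells, NK cells and neutrophils. Most of those libraries held few counts of it. Over all 17186 blood neutrophils a floor of 3 counts stands at 0.263 CPM, so their low pooled level is not set by depth.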
